A study of Mus musculus with 47 samples.

Results

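The genes described here were the cadherins, protocadherins and calsyntenins, taken as every gene symbol that starts with Cdh and a digit, with Cdhr or with Pcdh, together with Clstn1, Clstn2 and Clstn3. These names matched 67 of the 22800 gene symbols in the count table. The study sampled NPY-positive neurons, GABAergic interneurons that contain neuropeptide Y, and asked how they differ between the auditory cortex (AC), a neocortical area, and hippocampal area CA3, an allocortical area. Each sample was the cytosol of a single neuron, drawn into a patch pipette after recording and sequenced as polyA RNA with Nextera XT libraries. The 26 cells described here came from AC (10 cells, columns N3X, N4, N41 to N44, N46, N5, N7 and N8), from CA3 (13 cells, N26 to N34 and N37 to N40) and from CA1 (3 cells, N1, N2X and N6).

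All animals were 3 to 8 weeks old and carried the same reporter. The series text calls it NPY-EGFP, and the methods of the study name the NPY-hrGFP strain, which has the reporter under control of the Npy gene. Cells were therefore picked by this reporter in every group. AC cells came from superficial layers L1 and L2 in coronal slices, and CA3 cells from stratum lacunosum moleculare (SLM) in horizontal slices, so that effects of region and of slice plane cannot be told apart. The layer of the CA1 cells is not given in the sources used here. No mouse is named for any of the cells, which came from 8 mice in total, so each region counts as 1 sample and no test between regions was made. Values are given per cell, with the SD over cells or with exact intervals. Those of summed reads cover counting error only, and those of shares of cells treat the cells as independent draws, so neither covers differences between mice.

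Cadherins are calcium-dependent adhesion molecules that hold neighbouring membranes together. Classical cadherins bind the same cadherin, or a close relative, on the other cell, and are linked to actin inside the cell through catenins. Protocadherins fall into the clustered genes, whose alpha, beta and gamma isoforms are chosen in different combinations by single neurons and allow a neurite to tell its own branches from those of others, and the non-clustered delta genes, which act in axon growth and synapse formation. Calsyntenins are distant members of the superfamily that sit at synapses and on transport vesicles.

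Depth ranged from 601781 to 7949918 reads per cell, so that 1 read was worth between 0.126 and 1.66 reads per 1000000 reads of its cell (CPM). Npy, Gad1 and Gad2 were read in all 26 cells, and Npy lay between 250 and 10566 CPM. Markers of other cells were present at uneven levels, high in some cells. The summed astrocyte list ranged from 0.247 to 3015 CPM in AC and from 0 to 660 CPM in CA3, the oligodendrocyte list from 0 to 367 and from 0 to 1043 CPM, and the microglia list from 0 to 4365 and from 0 to 2161 CPM. The pyramidal list reached 157 CPM in AC and 383 CPM in CA3, and the endothelial list 1.17 and 33.7 CPM. Of the microglia genes, C1qb reached 583 CPM in AC and 1648 CPM in CA3 (N27), and Csf1r reached 2583 CPM in AC (N42) and 121 CPM in CA3. The astrocyte transporter gene Slc1a3 was read in 6 of 10 AC cells, up to 835 CPM in N4, and in 1 of 13 CA3 cells, and the myelin gene Mbp in 2 of 10 and 7 of 13 cells, up to 949 CPM in N28. Of other markers on these lists, Aqp4 (astrocytes), Mog (oligodendrocytes), Tmem119 (microglia) and Cldn5 (endothelium) had 0 reads in every cell. What part these levels play in the values below was not tested. Column N4X, also labelled AC, held nearly the same profile as N4 (Pearson's r = 0.997 of log2 levels, across genes), was taken as a second column of that cell, and is outside the 26 cells.

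Most of these genes were read in few neurons. Of the 67 members, 55 were detected in 1 or more of the 26 cells and 12 were not. Among the 23 AC and CA3 cells, 13 members were read in 0 cells, 16 in 1 cell, 19 in 2 to 4 cells, 8 in 5 to 9 cells and 7 in 10 to 17 cells. Only 4 members reached 18 cells or more, and these were the gamma cluster row Pcdhg, the alpha cluster row Pcdha, Clstn1 and Clstn3. The heat map of all members that were read shows these 4 rows filled nearly from side to side, with scattered entries elsewhere.

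**Figure D1:**
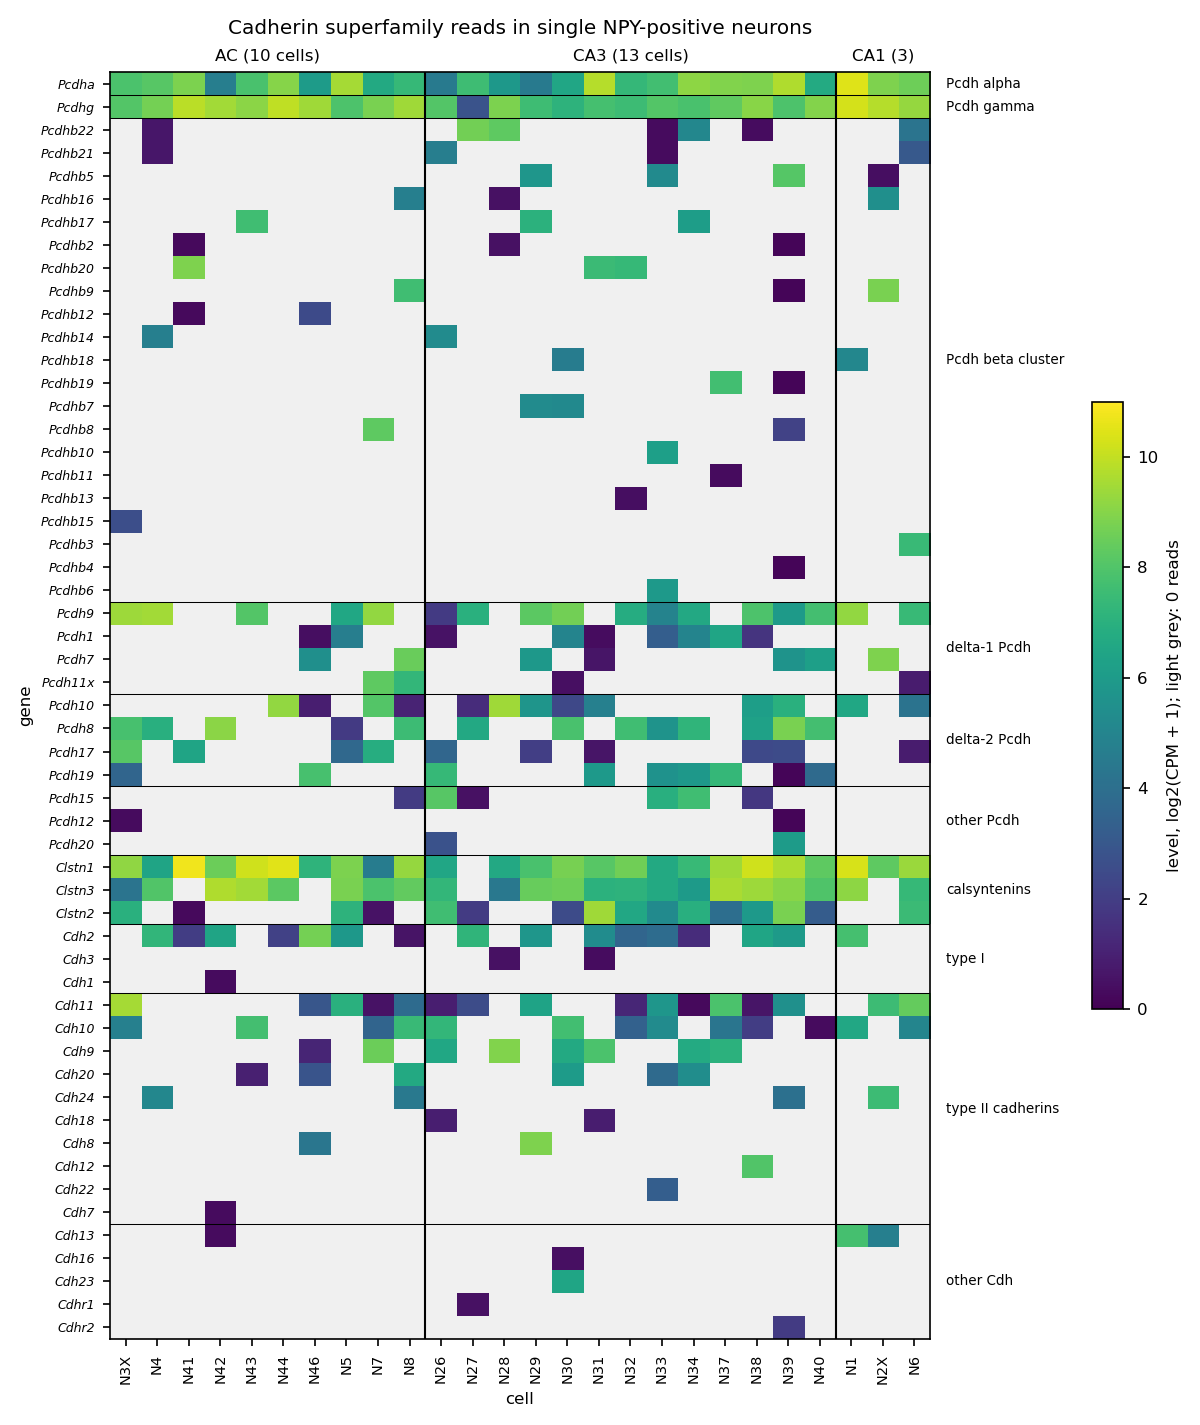
Level of each of the 55 members detected in any of the 26 cells, as log2(CPM + 1), in columns for 10 AC, 13 CA3 and 3 CA1 cells and in rows grouped by subfamily. Light grey marks 0 reads. Pcdha and Pcdhg are read in every column, whereas each beta cluster isoform is read in 6 of 23 AC and CA3 cells at most, and cells differ in which isoforms are read.

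An AC cell held reads of 10.9 ± 2.96 members (mean ± SD, n = 10), a CA3 cell of 14.8 ± 3.91 (n = 13) and a CA1 cell of 11.3 ± 2.31 (n = 3). CA3 cells also had more genes read in all, with 5860 ± 1240 genes against 4758 ± 1058 in AC. Per 1000 genes read, the members numbered 2.56 ± 0.592 in CA3, 2.32 ± 0.512 in AC and 2.20 ± 0.158 in CA1, and these differences are smaller than the SD over cells in AC or CA3. After every cell was thinned to 601000 reads the counts were 12.9 ± 3.31 in CA3 and 9.65 ± 3.09 in AC. N39, the deepest library, held the most members (23), and N44 of AC the fewest (6).

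**Figure D2:**
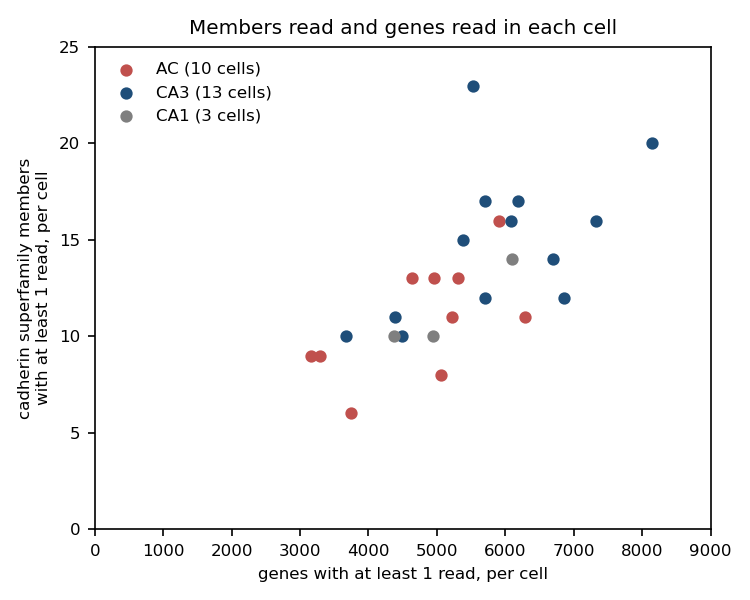
Number of members with at least 1 read against number of genes with at least 1 read, with 1 point per cell for 10 AC (red), 13 CA3 (blue) and 3 CA1 (grey) cells. Cells with more genes read tend to hold more members, from 6 members in N44 with 3738 genes to 23 in N39 with 5531 genes.

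In reads rather than in number of genes, the mean of AC was above that of CA3, and that of CA1 above both. The members together took 2836 ± 706 CPM in AC, 2201 ± 915 CPM in CA3 and 3836 ± 1678 CPM in CA1, so that the AC and CA3 means lie within 1 SD of each other. The CA1 mean rested on N1, the shallowest library, with 5770 CPM, and was 2870 CPM without it, close to that of AC. The 4 broadly read members made up 63.3 ± 20.8% of these reads in AC and 51.7 ± 17.1% in CA3. The member with most reads differed between cells of the same region. It was Clstn1 in 3 AC cells and in 3 CA3 cells, Pcdhg in 2 and 2, Pcdha in 1 and 3, Clstn3 in 1 and 1, and in the others it was a gene read in fewer cells, such as Pcdh9, Cdh11, Cdh8, Pcdh10, Pcdh15 or Pcdhb22.

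A difference between regions was computed as the mean of log2(CPM + 1) over AC cells minus the mean over CA3 cells, for the genes of which 10 or more of the 23 cells held any read. This left 5964 genes (26.2% of all) and 11 members (16.4% of 67). A difference of 1 or more is called higher below, which is a rule of size and not a test. Of the 11 members, 1 was higher in AC (Pcdhg), beside 13.6% of the 5964 genes. Higher in CA3 were 2 of 11 (Clstn2 and Pcdh8), beside 43.2% of the genes. For 0 of the 11 members did the cells of AC and CA3 separate without overlap, beside 0.0838% of the genes. The median difference was -0.02 for the 11 members and -0.72 for all genes compared, of which 31.7% had a positive difference, as did 5 of the 11. Since the median gene was lower in AC, the split moved with the centring. Relative to that median, 25.6% of genes were higher in AC and 25.7% in CA3, and among the members Pcdhg and Clstn1 were higher in AC and Clstn2 in CA3. As log2 ratios of mean CPM the shares were 20.3% and 23.1%, with 3 members higher in AC (Pcdhg, Cdh2 and Cdh11) and 1 in CA3 (Clstn2).

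**Figure D3:**
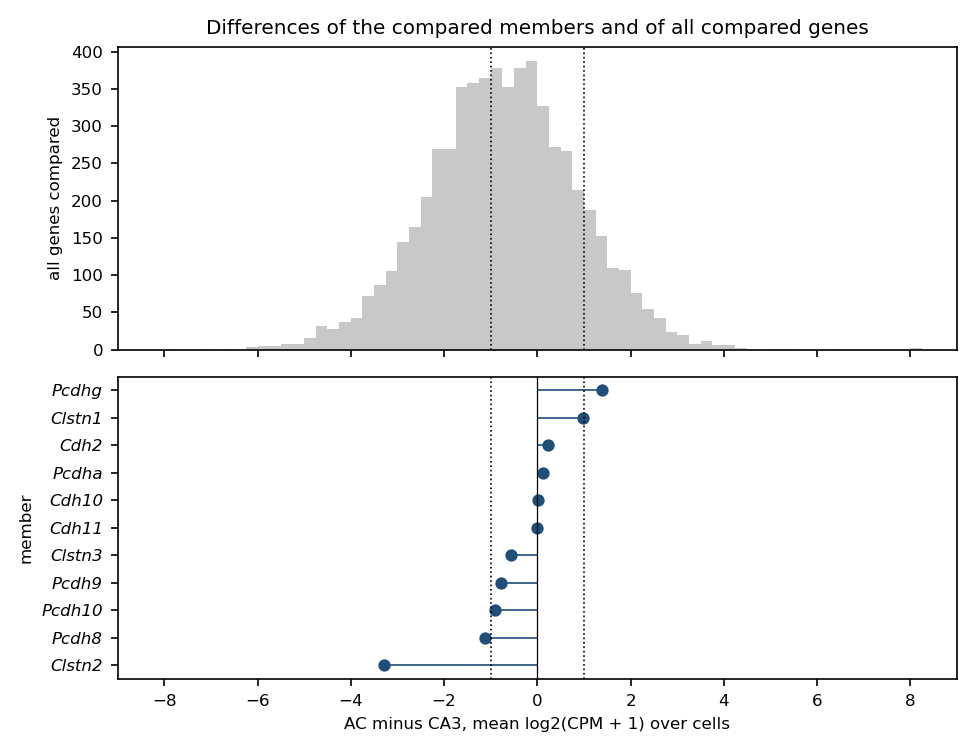
Histogram of the AC minus CA3 difference in mean log2(CPM + 1) for the 5964 genes compared (upper panel), and the same difference for the 11 members compared (lower panel). Dotted lines mark differences of -1 and 1. Pcdhg lies beyond 1, Pcdh8 and Clstn2 lie beyond -1, and Clstn1 falls just short of the line at 0.99.

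The classical cadherin Cdh2, or N-cadherin, the main adhesion molecule of excitatory and many other synapses, was read in 7 of 10 AC cells and 8 of 13 CA3 cells. Its level was 0, 3.16 and 420 CPM in AC (lowest, median and highest) and 0, 11.2 and 148 CPM in CA3. Among CA1 cells, N1 had 214 CPM and N2X and N6 had 0. Both regions thus mix cells without a read and cells with high values, and the difference was 0.24 on the log2(CPM + 1) scale with SDs of 3.41 and 2.90. On the same scale it was -0.36 without N46 and -0.34 with all labelled AC and CA3 cells, 19 and 21 of them. As the log2 ratio of mean CPM over the 23 cells it was 1.16. The AC cells with most Cdh2 were N46 (420 CPM) and N4 (151 CPM), and these also had the highest summed astrocyte markers of AC, 1119 and 3015 CPM, from a list of which 6 of 7 genes were read in AC and 3 of 7 in CA3. In CA3, the cells with most Cdh2 were N27, N38, N39, N29 and N31, at 148, 88.0, 62.5, 54.6 and 40.1 CPM. Their summed astrocyte markers were 191, 0, 660, 243 and 0 CPM, in the same order. N28 of CA3 had 407 CPM of these markers and 0 CPM of Cdh2. N1, the CA1 cell with Cdh2, had 1683 CPM of astrocyte markers, and the part of these in the Cdh2 values was not tested. Of the other type I cadherins, Cdh1 was read in 1 AC cell and Cdh3 in 2 CA3 cells, and Cdh4 and Cdh15 in none.

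Type II cadherins, a group whose members are often used in different combinations by different neuron types, were read at 1.8 ± 1.48 genes per AC cell and 2.38 ± 1.04 per CA3 cell. Of the 13 genes, 10 were read in the 26 cells and 2 could be compared. Cdh10 ranged from 0 to 206 CPM in AC with a median of 0 and from 0 to 205 CPM in CA3 with a median of 0.232 CPM, a difference of 0.02 that moved to -1.05 with all labelled cells. N43 and N8 of AC and N26 and N30 of CA3 carried most of it. CA1 had 94.7 CPM in N1 and 30.9 CPM in N6. Cdh11 reads were found in 5 of the 10 cells from AC and 9 of the 13 from CA3, at a difference of -0.02, or -0.88 with all labelled cells, although its mean CPM was 86.7 in AC and 32.96 in CA3. A single AC cell, N3X, held 89.6% of the AC reads of Cdh11 at 723 CPM, and N37 with 239 CPM held 54.5% of those of CA3. In CA1, N2X had 184 CPM and N6 had 335 CPM.

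Cdh9 was read in too few cells for the comparison and is named here because of its values. This gene, known for its part in a hippocampal mossy fibre synapse, was at 0 reads in most AC cells, with 373 CPM in N7 and 1.23 CPM in N46. In CA3, 6 of 13 cells held it, at 92.8 CPM in N26, 482 CPM in N28, 102 CPM in N30, 235 CPM in N31, 104 CPM in N34 and 132 CPM in N37. The shares of cells were 20% in AC (exact 95% interval 2.52 to 55.6%) and 46.2% in CA3 (19.2 to 74.9%). Without N7, the only AC cell with more than a few reads, the difference moved from -2.40 to -3.24, and with all labelled cells it was -1.57. CA1 had 0 reads in 3 cells, a limit of 0.596 CPM over the summed libraries if up to 3 reads were missed. Cdh8 (464 CPM in N29) and Cdh12 (259 CPM in N38) were each high in a single CA3 cell, and Cdh8 had 18.8 CPM in N46 of AC.

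Cdh13, or T-cadherin, lacks the cytoplasmic tail and is anchored by a lipid. It was read in 2 of 3 CA1 cells, at 214 CPM in N1 and 25.9 CPM in N2X. By contrast, 1 of 10 AC cells had a single read of it and 0 of 13 CA3 cells had any, which leaves a share of up to 24.7% by the exact interval and a level of up to 0.0614 CPM in the summed CA3 reads of these cells if up to 3 reads were missed. Outside these 13 cells, however, 3 further cells labelled CA3 held Cdh13, N14 at 652 CPM, N15 at 179 CPM and N22 at 65.4 CPM, so that reads of it were not particular to CA1. Cdh13 was picked out after its values were seen. The other cadherin-related genes were rare, with Cdh23 at 87.97 CPM in N30 the only one above a few CPM.

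The calsyntenins were among the best covered members. They were read at 2.2 ± 0.632 genes per AC cell and 2.69 ± 0.630 per CA3 cell of the 3 in the family. Clstn1 (chromosome 4, 149586468 to 149648899, plus strand), which links cargo vesicles to kinesin, was read in 10 of 10 AC cells at 23.5, 514 and 1738 CPM (lowest, median, highest). In CA3 it was read in 12 of 13 cells at 0, 281 and 1189 CPM, and the CA1 cells had 1301, 307 and 659 CPM in N1, N2X and N6. Its difference was 0.99, with means of 8.54 ± 1.95 in AC and 7.55 ± 2.55 in CA3. The difference was 0.36 without N27, the CA3 cell with no Clstn1 read. Leaving out any of 11 other cells put it between 1.02 and 1.43, which is past the size used here, and with all labelled cells it was 0.41.

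Clstn3 (chromosome 6, 124430759 to 124464794, minus strand), a postsynaptic protein that binds neurexins, was read in 8 of 10 AC cells and 12 of 13 CA3 cells. It had 0, 281 and 834 CPM in AC and 0, 155 and 766 CPM in CA3, and in CA1 558 CPM in N1, 0 in N2X and 165 CPM in N6. AC had the higher median and CA3 the higher mean of log2 values, so that the difference of -0.57 turned to 0.20 as the log2 ratio of mean CPM. It was -1.15 without N27, which had no Clstn3 read either, and 0.15 without N41. Taking all labelled cells gave 1.43, so that its direction is not settled by these data. Those cells include N51 and N48, labelled AC, with 14039 and 11384 CPM of Clstn3 but only 1565 and 1814 genes read.

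Clstn2 (chromosome 9, 97444395 to 98033181, minus strand), a calsyntenin with a known role in inhibitory synapses, showed the largest difference of the 11 members. Most AC cells had 0 reads, N41 and N7 had 0.229 and 0.444 CPM, and N3X and N5 had 125 and 136 CPM. In CA3 it was read in 11 of 13 cells, from 0 in N28 and N29 over a median of 37.9 to 683 CPM in N31 and 435 CPM in N39. CA1 had 0 in N1 and N2X and 181 CPM in N6. Of the AC cells, 2 were above the CA3 median. Cells with a read made up 40% of AC (12.2 to 73.8%) and 84.6% of CA3 (54.6 to 98.1%). N3X held 66.2% of the AC reads and N39 44.7% of those of CA3. The difference was -3.28, with means of 1.49 ± 2.93 and 4.78 ± 3.12, and it stayed between -3.91 and -2.90 when any 1 cell was left out. Relative to the median of all genes compared it was -2.56, and with all labelled cells -2.62. Per kilobase of exon, mean levels were ordered Clstn1, Clstn3, Clstn2 in AC (142, 63.0 and 4.61 CPM per kb) and in CA3 (78.7, 54.8 and 22.4 CPM per kb), although the cells' ranges of Clstn1 and Clstn3 overlapped in both regions.

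**Figure D4:**
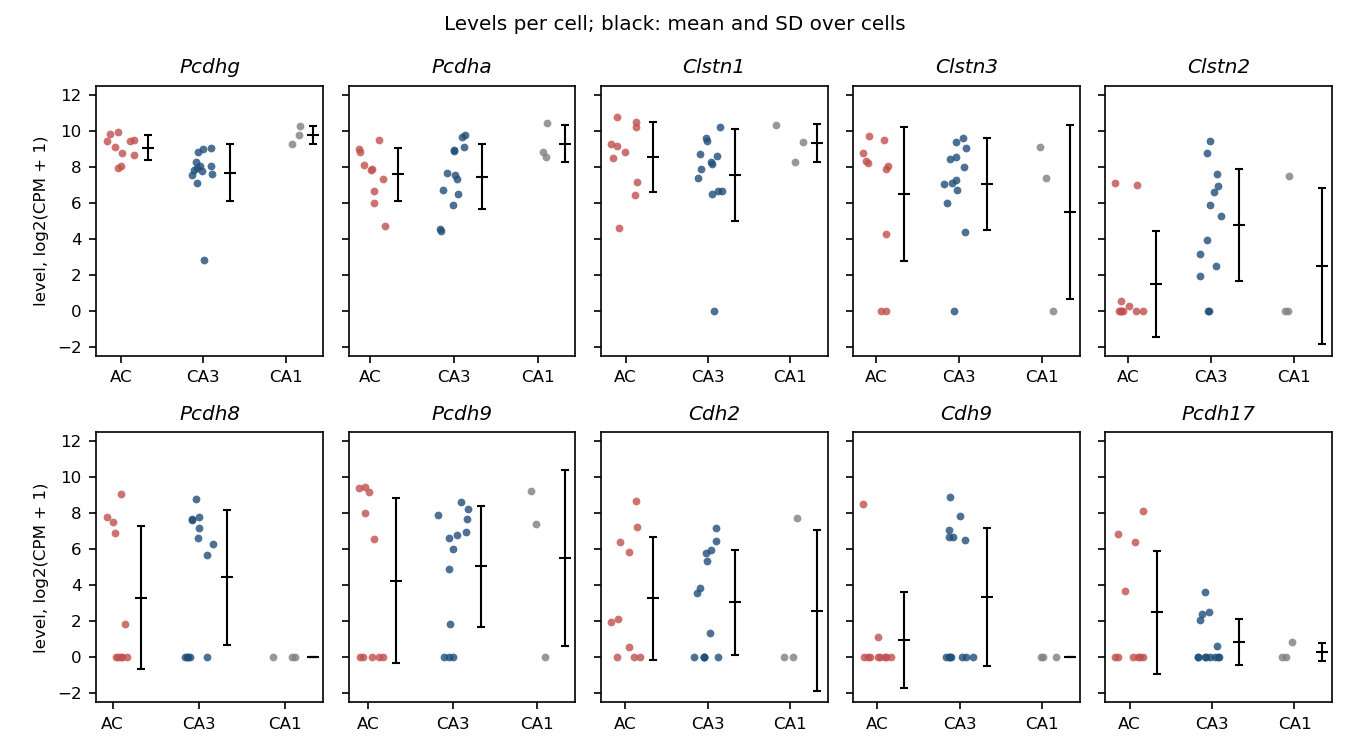
Level of 10 members in each cell as log2(CPM + 1), with 1 point per cell in AC (10), CA3 (13) and CA1 (3) and the mean and SD over cells in black. Pcdhg is at 241 CPM or more in every AC cell, Clstn2 is at 0 or close to it in 8 of 10 AC cells, and most other genes split each region into cells with and without reads.

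Among delta-1 protocadherins, Pcdh9 was the most broadly read. It had 0, 46.8 and 712 CPM in AC and 0, 99.0 and 403 CPM in CA3, and in CA1 597 CPM in N1, 0 in N2X and 172 CPM in N6. Of the AC cells, 5 of 10 held any read, but those were high, and 3 of them were above every CA3 cell. In CA3 the gene was read in 10 of 13 cells. The difference was -0.79 on the log2(CPM + 1) scale and 0.94 as the log2 ratio of mean CPM, so its direction depends on whether the mean is taken before or after the logarithm. With all labelled cells it was -2.70, past the size used here, and N18, N23 and N14, further cells labelled CA3, had 1319, 1070 and 1000 CPM, above every AC cell. Pcdh7 was read in 2 of 10 AC cells (355 CPM in N8) and in 4 of 13 CA3 cells, and N2X of CA1 had 472 CPM. Of its exon length, 21.1% is shared with another annotated gene.

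Pcdh1 and Pcdh11x were too rare for the comparison and differed in direction. Pcdh1 was read in 7 of 13 CA3 cells, up to 88.1 CPM in N37, and in 2 of 10 AC cells, up to 25.4 CPM in N5. Pcdh11x, an X-linked gene, was at 308 CPM in N7 and 155 CPM in N8 of AC, and the remaining 8 AC cells had 0 reads. In CA3 a single read was found in N30, and in CA1 a single read in N6. The Pcdh11x difference of 1.52 fell to 0.78 without N7 and to 0.44 with all labelled cells, among which N14 and N15 of CA3 had 393 and 201 CPM.

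The delta-2 protocadherins Pcdh8, Pcdh10, Pcdh17 and Pcdh19 were each read in part of the cells, and Pcdh18 in none. Pcdh8 (chromosome 14, 79766775 to 79771312, minus strand), also called arcadlin and known as an activity-regulated gene that removes N-cadherin from synapses, had 0, 1.32 and 543 CPM in AC and 0, 76.8 and 439 CPM in CA3. It had 0 reads in all 3 CA1 cells. The 2 regions overlapped over their whole range, since N42 of AC was above every CA3 cell and 5 cells in each region had none. Its difference was -1.12, with means of 3.32 ± 3.96 and 4.44 ± 3.73, and it was -0.05 as the log2 ratio of mean CPM. Leaving out any of 13 cells brought it to between -0.97 and -0.75, under the size used here. With all labelled cells it turned to 1.47, and these include N9, labelled AC, with 32767 CPM of Pcdh8 and 866 genes read. Of its exon length, 9.61% lies under another annotated gene.

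Pcdh10, linked to axon growth and spine removal, had 0, 0 and 585 CPM in AC and 0, 1.60 and 698 CPM in CA3, a difference of -0.91, or 0.17 as the log2 ratio of mean CPM. One cell per region held most of the reads, N44 with 76.3% of those of AC and N28 with 51.8% of those of CA3. In CA1, N1 had 93.1 CPM and N6 had 17.1 CPM. Without N44 the difference was -1.72, without N28 it was -0.36, and with all labelled cells it was -1.19.

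Pcdh17 and Pcdh19, neither of which passed the filter, had opposite patterns. Pcdh17, which acts in presynaptic assembly of basal ganglia circuits, was read in 4 of 10 AC cells at 285 CPM (N3X), 84.4 CPM (N41), 12.2 CPM (N5) and 115 CPM (N7), and all 4 were above the highest CA3 cell (11.2 CPM, N26). In CA3 it was read in 5 of 13 cells. The share of cells was therefore 40% in AC and 38.5% in CA3. N3X held 64.0% of the AC reads, and the difference of 1.65 was 1.02 without it. Further cells labelled CA3 had more, with 152 CPM in N13, 87.3 CPM in N15 and 17.4 CPM in N18, and the difference was 0.40 with all labelled cells. Pcdh19, an X-linked gene known for epilepsy in heterozygous carriers, was read in 7 of 13 CA3 cells, at 162 CPM in N26, 59.0 in N31, 47.1 in N33, 56.9 in N34, 161 in N37, 12.8 in N40 and 1 read in N39. In AC it was read in N46 (221 CPM) and N3X (11.1 CPM). Its difference of -1.63 was -0.69 with all labelled cells.

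Of the remaining non-clustered genes, Pcdh15, which forms the tip link of hair cells together with Cdh23, was at 279 CPM in N26, 121 CPM in N33 and 196 CPM in N34 of CA3. N27 and N38 had 0.400 and 2.45 CPM, N8 of AC had 2.71 CPM, and all other AC and CA1 cells had none. Of the further cells, N48 labelled AC had 388 CPM and N14 labelled CA3 had 241 CPM, and the difference moved from -1.73 to -1.01 with all labelled cells. Pcdh15 was also picked out after its values were seen. Oligodendrocyte markers, listed because precursors of that lineage are known to express Pcdh15, came to 7.18 CPM in N26, 116 CPM in N33 and 146 CPM in N34, but to 955 and 1043 CPM in N28 and N39, where Pcdh15 had 0 reads.

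The clustered protocadherins appear as a single row for alpha, a single row for gamma and 22 rows for beta, so reads of single isoforms can be followed only in the beta cluster. Whether the alpha and gamma rows sum, average or select the isoforms of their cluster is not given in the sources used here, so their levels, and the ratio between them, describe the rows as deposited. The gamma cluster, whose loss is known to affect survival of interneurons, was the most even member. Pcdhg was read in every cell, with 241, 615 and 988 CPM in AC (lowest, median, highest) and 6.0, 242 and 525 CPM in CA3. The CA1 cells had 1253, 862 and 620 CPM in N1, N2X and N6, each above these 13 CA3 cells, but further cells labelled CA3 reached 1134 CPM (N13), 1022 CPM (N15) and 702 CPM (N17). In AC, 6 of 10 cells were above the highest CA3 cell and 9 of 10 above the CA3 median. The means were 9.07 ± 0.70 in AC, 7.68 ± 1.58 in CA3 and 9.78 ± 0.51 in CA1, and summed reads came to 631 CPM (623 to 640), 278 CPM (273 to 283) and 850 CPM (825 to 876). The difference of 1.39 was 0.98 without N27, whose 6.0 CPM of Pcdhg was far under the other CA3 cells, so the call rests on that cell. N27 also had the highest summed microglia markers of CA3 (2161 CPM) and 376 CPM of oligodendrocyte markers, whose part in its values was not tested. With all labelled cells the difference was 0.01.

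Pcdha, the alpha cluster row, differed little between AC and CA3. It had 25.02, 233 and 727 CPM in AC and 21.2, 190 and 862 CPM in CA3, a difference of 0.13 with SDs of 1.47 and 1.79. In CA1 it was 1411 CPM in N1, 462 CPM in N2X and 376 CPM in N6. The reads of Pcdhg per read of Pcdha ranged from 0.331 to 28.3 in AC (median 2.21) and from 0.0316 to 11.98 in CA3 (median 1.17), so that the balance between the clusters varied more among cells of a region than between the medians.

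The beta isoforms formed a different picture, since each cell held reads of few of them and cells differed in which were read. Of 22 genes, 20 were read in the 23 AC and CA3 cells, 21 in all 26, and Pcdhb1 in none. These genes are close copies of each other, so a few reads can be placed on the wrong isoform, which was not tested. Single reads made up 35.7% of the beta values above 0 (15 of 42), compared with 5.36% for all genes and 11.6% for the 67 members. The share was 16.4% for the members without Pcdha, Pcdhg, Clstn1 and Clstn3. Isoforms with at least 10 reads in a cell were therefore looked at as well. By this count 16 isoforms were present, 9 of them in a single cell, and none in more than 3 of the 23 cells. Of the cells, 5 had 0 such isoforms, 11 had 1 and 7 had 2 or 3.

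In AC, 8 isoforms passed 10 reads and each did so in 1 cell. N41 held Pcdhb20 (2036 reads), N8 held Pcdhb9 (1215 reads) and Pcdhb16 (164 reads), N7 held Pcdhb8 (688 reads) and N43 held Pcdhb17 (607 reads). N4, N3X and N46 had Pcdhb14, Pcdhb15 and Pcdhb12 at 45, 21 and 15 reads, and N42, N44 and N5 had no beta read. Thus no pair of the 10 AC cells shared an isoform at this level, although missed isoforms cannot be told from absent ones.

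In CA3, 12 isoforms passed 10 reads, 7 of them in 1 cell. N39 had Pcdhb5 (2147 reads) and Pcdhb8 (28 reads), N27 and N28 had Pcdhb22 (1009 and 723 reads), N37 had Pcdhb19 (868 reads), and N31 and N32 had Pcdhb20 (641 and 513 reads). N29 and N33 had 3 isoforms each, with Pcdhb17, Pcdhb5 and Pcdhb7 in N29 (416, 169 and 123 reads) and Pcdhb10, Pcdhb6 and Pcdhb5 in N33 (284, 236 and 144 reads). N34 had Pcdhb17 and Pcdhb22 (347 and 165 reads), N30 had Pcdhb7 and Pcdhb18 (102 and 66 reads) and N26 had Pcdhb14 and Pcdhb21 (86 and 56 reads). N38 had a single beta read and N40 none. The most widely read isoform was Pcdhb22, with reads in 5 of 13 CA3 cells and 1 of 10 AC cells, and all others were read in 3 of the 23 cells or fewer. Pcdhb5 was read in 3 CA3 cells and 0 AC cells (exact interval 0 to 30.8%). Pcdhb21 and Pcdhb22 share part of their annotated exons, 9.67 and 6.88% of their lengths, so that their reads cannot be fully told apart.

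Cells of one region shared few of the less common members. Without Pcdha, Pcdhg, Clstn1 and Clstn3, and counting members with at least 10 reads, the median over pairs of AC cells was 1 shared member, or 28.6% of those in a cell, and over pairs of CA3 cells 3 shared members, or 35.7%. The columns N4 and N4X shared all 5 of their 5 members at this level, but they were taken as the same cell because their profiles are nearly equal. Their sharing is therefore no check on the sharing between cells. The 2 members that N4 had beyond these 5 were the single reads of Pcdhb21 and Pcdhb22, which N4X did not have.

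Other genes of the pathway were followed in 3 lists. Of 10 catenins and partners, 4 could be compared, of which Ctnnd2 (delta-catenin) was higher in AC at 1.50 and Ctnnb1 (beta-catenin) and Pkp4 were higher in CA3 at -2.02 and -3.51, with Ctnna2 at -0.85. That is 1 of 4 and 2 of 4, beside 13.6% and 43.2% of all genes compared. Their median was -1.44, against -0.72 for all genes. The Ctnnb1 median was 219 CPM in AC and 336 CPM in CA3, and the gene was read in 7 of 10 and 12 of 13 cells. Its mean CPM went the other way, at 397 in AC and 305 in CA3, and 3 AC cells were above every CA3 cell. The direction for Ctnnb1 thus depends on whether the mean is taken before or after the logarithm. Of 16 further superfamily genes (Fat, Dchs, Celsr, desmosomal cadherins and Ret), only Celsr2 passed the filter, at -0.98. Fat1, a giant atypical cadherin, did not pass it but was read in 7 of 10 AC cells, up to 617 CPM in N44, and in 2 of 13 CA3 cells. Of 7 genes for the proteases that shed and cut cadherins, 4 were compared, of which 1 was higher in AC and 1 in CA3, beside the same 13.6% and 43.2%. These were the gamma-secretase subunits Psenen (1.18) and Ncstn (-3.34), and Adam10 (-0.67) was under the size used here.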

How the data were processed

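Single-cell cytosol was sequenced as polyA RNA. Per the labels, the authors trimmed reads with Trimmomatic, aligned them with STAR to GRCm38 and counted with featureCounts; the methods name Flexbar and HTSeq as well. The deposited values are raw read counts per gene symbol, in 47 columns, and the authors averaged counts where several identifiers shared a symbol. CPM was computed here from each column's total. Levels are log2(CPM + 1), and genes of which 10 or more of the 23 cells held any read were compared. The scran normalization of the study entered as an alternative, next to TMM and DESeq2 size factors. No strand setting for counting is given in the sources used here. Poisson and Clopper-Pearson intervals are at 95%. Python 3.11.15, pandas 2.3.3, scipy 1.17.1, R 4.3.3, scran 1.30.0, edgeR 4.0.16 (TMM) and DESeq2 1.42.0 were used, and the comparison was checked on simulated data.

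The members and lists were chosen with earlier results of these data known. Named were members read in at least 18 of 23 cells, the 5 largest differences in each direction, members read in at least 5 cells of one region and in 0 of the other, and the 3 clustered protocadherins of each cluster read in most cells; others were named by their values. Coordinates and exon lengths are from GENCODE vM21 (GRCm38), which held 65 of the 67 symbols, not Pcdha and Pcdhg. With 1 sample per region, SDs over cells may mix differences between mice. Columns of DG cells, the NPY-negative cell and 18 other columns of AC and CA3 served only as an alternative or as further observations. The study reports 3163 to 6288 genes for the 10 AC neurons that passed its quality control, which is the range of the 10 AC cells here. The further columns labelled AC therefore appear not to be among those it kept. Some genes of the lists of proteases and markers are not reported here.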

Additional observations from a re-analysis of the deposited data

Results flagged for a closer look

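In AC, Pcdhb21 and Pcdhb22 each stood out because N4 lay apart from the other 9 cells, at 0.66 on the log2(CPM + 1) scale against 0 in each of them. Both values are single reads, worth 0.583 CPM. Of 16 sets of values looked at, 2 were marked in this way, and chance marks about 1 in 20 sets of continuous values. That rate does not apply here, since a gene read in only 1 of the cells is always marked.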

How the results depend on the processing

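The count of members higher in AC was 1 and became 2 with scran size factors, with DESeq2 size factors, with a pseudocount of 0.1 (beside 14.97, 13.3 and 16.1% of all genes), relative to the median of all genes and with all labelled cells (beside 5.80% of all genes), and 3 as log2 ratio of mean CPM (beside 20.3%) or, of 54 members, with no filter on low values (beside 10.99%). It ran from 0 to 2 with 1 cell left out, and was 0 without N27. The count higher in CA3 was 2 and became 1 with a pseudocount of 10, as log2 ratio of mean CPM and relative to the median (beside 25.1, 23.1 and 25.7%), 4 with a pseudocount of 0.1 and with all labelled cells (beside 52.4 and 50.8% of all genes), and 8 of 54 with no filter (beside 27.5%), and ran from 1 to 4 with 1 cell left out. TMM factors and thinning moved neither count. With all labelled cells, Pcdh8 turned from -1.12 to 1.47, Pcdhg fell to 0.01, Clstn3 went from -0.57 to 1.43 and Pcdh9 from -0.79 to -2.70, and the summed member CPM in AC went from 2836 to 5686. For part of the members the text names, 170 differences were recomputed under these settings. Of these, 163 moved by less than the SD over cells, which is wide. Leaving out single cells moved Pcdhg, Pcdh8, Clstn1, Clstn3, Pcdh9 and Pcdh10 across the size used for a call. The median of all genes was -0.72 and ranged from -1.11 with a pseudocount of 0.1 to -0.10 as a ratio of means. In CA3, 3 reads over all cells equal 0.0614 CPM, and in N1 of CA1, the shallowest cell, 1 read is 1.66 CPM, so a gene with 0 reads may lie under that level. No paired analysis was possible because no replicate numbers link the cells of different regions.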

Other observations

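The 21 columns outside the 26 cells held between 40934 and 6235022 reads and between 633 and 6209 genes. In N9, labelled AC, 866 genes and 2 members were read, and Pcdh8 took 32767 CPM, compared with 543 CPM at most in the 10 AC cells above. Clstn3 reached 11384 CPM in N48 and 14039 CPM in N51, both labelled AC, with 1814 and 1565 genes read, against 834 CPM at most in the 10 AC cells. N36, labelled CA3, had 1753 genes, 2095 CPM of Clstn2 and 1928 CPM of Clstn3. Of the 2 cells from the dentate gyrus, N12 held reads of 8 members with Pcdhg the highest at 777 CPM, and N11, with 647 genes, held none. The NPY-negative CA3 cell held reads of 9 members, 1453 CPM in all, with Pcdh9 in the lead.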
